A study of Caenorhabditis elegans with 44 samples.

Results

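Levels of mature microRNA strands were compared between the third and the fourth larval cycles of *Caenorhabditis elegans*, using the 7 hourly libraries of 22 to 28 h after plating and the 7 of 29 to 35 h, out of 44 libraries sampled from 5 to 48 h. Each hour of the third cycle was matched to the hour 7 h later, so that 22 h was compared with 29 h and 28 h with 35 h. Of the 437 strands in the count table, 272 from 170 hairpins had a mean raw count of 10 or more across the whole time course and were tested. For 102 hairpins both strands were tested; the more abundant one across the time course was called the guide and the other the passenger. Both groups were whole, untreated wild-type worms of strain N2, plated as synchronized L1 larvae at about 2000 a plate and grown at 25 °C. Each hour had 1 library, so the 7 hours of a cycle stood in for replicates, and every p-value measured scatter within this single time course. Some rhythmic strands had matching extremes 9 h rather than 7 h apart, as given below, so for them matched hours may compare different phases of the cycle. In whole worms, more cells that express a microRNA and more of it per cell cannot be told apart.

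A microRNA is cut from a hairpin precursor as a duplex, of which the guide is loaded into an Argonaute protein and represses messenger RNAs that match its seed, while the passenger is usually discarded. In *C. elegans* the first microRNAs described, lin-4 and let-7, set the order of larval cell fates. Larval development proceeds in cycles that each end with a molt. The windows compared here were set by hours and not by molts. The study places a molt at around 25 h after plating, so the window of 22 to 28 h may hold libraries from both sides of it. The comparison may thus not separate the larval stages before and after that molt. The fourth larval stage is also the time at which the gonad, vulva and uterus are built.

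The libraries held between 7446763 (25 h) and 14672735 counts (31 h), and values below are scaled counts, set to the average library size, so that 1 read equalled 0.72 to 1.42 scaled counts. Poisson 95% intervals are given for a few of the low values and cover counting error only. Between 26 h and 27 h, several strands shifted together and shifted back between 37 h and 38 h. For 12 strands, selected after these values were seen, both shifts were opposite in direction and each exceeded every other hourly change within 22 to 26 h, 27 to 37 h and 38 to 43 h. The passenger miR-80-5p, for example, had 28226 scaled counts at 26 h and 10187 at 27 h, then 10141 at 37 h and 32969 at 38 h. miR-66-5p moved the opposite way, from 72202 to 117065 and from 132548 to 83570. Changes past 1 log2 unit were seen in 21 strands from 26 h to 27 h and 10 from 37 h to 38 h, but also in 18 from 22 h to 23 h. The median absolute change of these steps was 0.277, 0.275 and 0.176 log2 units. The library of 38 h held only 1669246 counts, so its values are less certain. The labels name no batch for the hours from 27 to 37 h. All 7 libraries of the fourth cycle and those of 27 h and 28 h lay on the same side of these shifts, so that only the 27 and 34 h pair and the 28 and 35 h pair were matched within it. The mean difference of these last pairs is therefore given beside the main results below, and whether the shift has a part in a result was not tested.

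**Figure D1:**
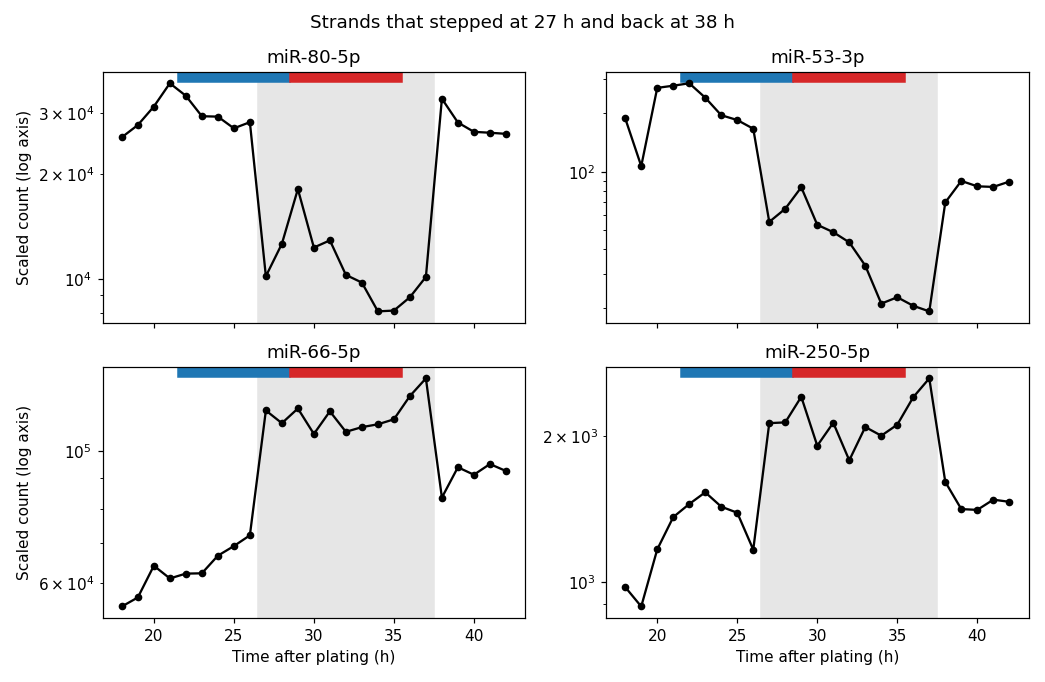
Scaled counts (log axis) by hour after plating for 4 of the 12 strands that shifted at 27 h and back at 38 h; the grey area spans 27 to 37 h, and the blue and red bars mark the third and the fourth cycle. The passenger miR-80-5p dropped from 28226 to 10187 scaled counts at 27 h and stood at 32969 at 38 h, whereas miR-66-5p rose from 72202 to 117065.

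The first comparison asked which strands had a different level in the fourth cycle. In the edgeR fit with the 7 matched positions as a block, 23 of 272 strands (8.46%) were at least 1 log2 unit higher and 13 (4.78%) at least 1 log2 unit lower, with an adjusted p under 0.05. The median difference of all 272 strands was 0.003 log2 units and the quartiles were -0.35 and 0.39. A further 84 strands passed the adjusted p alone with a smaller difference. Of the 23 higher strands 21 were higher in all 7 pairs, and in 18 the libraries of the cycles did not overlap, against 24 of all 272 strands (8.82%). Of the 13 lower strands 12 were lower in all 7 pairs, but only 4 had no overlap, against 14 of all strands (5.15%). The cycles are adjacent in time, so a strand that climbed or declined steadily through both also differed at matched hours.

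The higher strands took a mean of 0.77% of the counts of a library in the third cycle and 4.19% in the fourth. The lower strands took 0.67% and 0.24%. Within the pairs of 27 and 34 h and of 28 and 35 h, 22 of the 23 higher strands were still higher on average, 15 of them by at least 1 log2 unit, and all 13 lower strands were lower, 9 of them by at least 1. With the hours from 27 h on as an added term, an alternative chosen after the data were seen, 12 of the 23 and 9 of the 13 were called, and the median of all strands moved to -0.20.

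**Figure D2:**
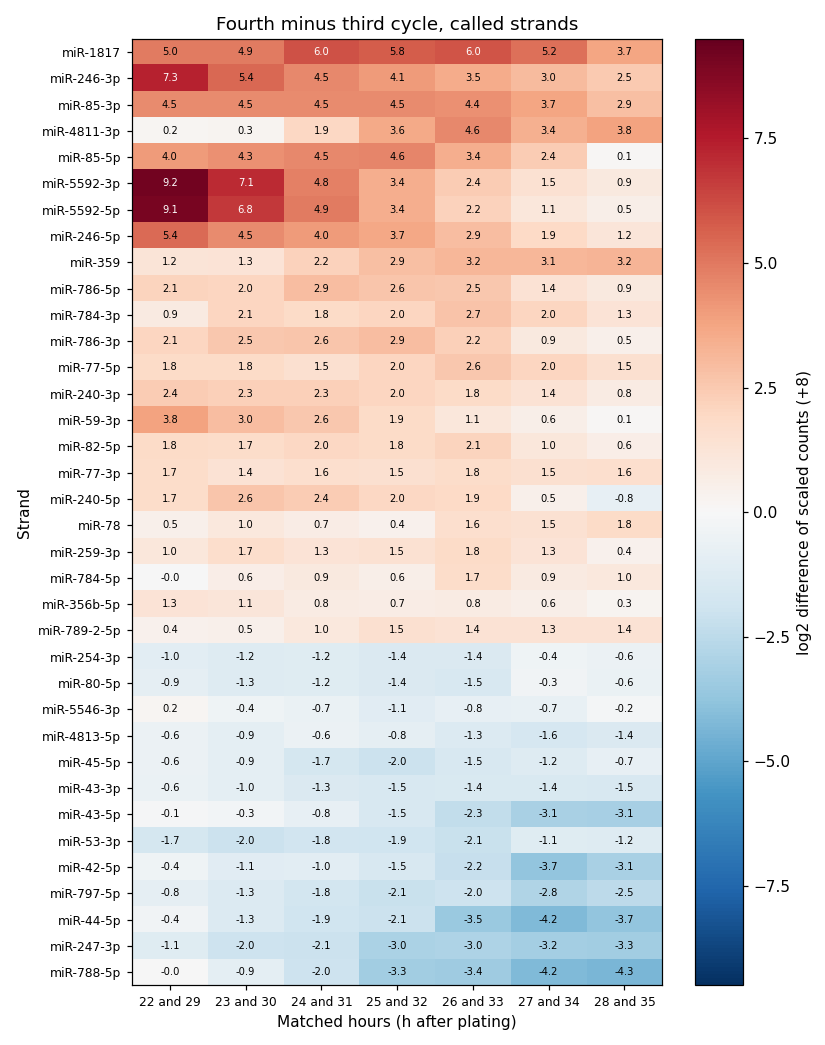
Matched log2 differences (the fourth minus the third cycle, scaled counts plus 8) of the 36 called strands, 1 row a strand and 1 column a pair of hours. The differences of miR-5592-3p shrank from 9.19 in the first pair to 0.95 in the last, while those of miR-788-5p grew from -0.03 to -4.33.

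The study linked 6 microRNAs to the spermatheca or uterus, which it chose on these samples and so no independent evidence. Of the strands listed here for them, 4 of 6 were called higher and none lower, with a median difference of 2.24 log2 units. Of all 272 strands, 23 (8.46%) were called higher. The study named no strands there, and the strand listed for miR-240 was the passenger miR-240-3p. The list used here also held the guide miR-246-3p, which the study's text does not name among them; with it the count was 5 of 7 and the median 2.48. miR-246-3p (chromosome IV, 10940134 to 10940230 of the WBcel235 annotation, plus strand) had 415 scaled counts at 22 h, 2081, 5496, 10525, 16814 and 25916 in the following hours and 41941 at 28 h. From 29 to 35 h it had 67052, 89467, 127371, 176770, 196592, 211237 and 235765. It rose at every hour, and each library of the fourth cycle was above all of the third. Its mean was 10.7-fold higher, and the fitted difference was 4.26 ± 0.62 (SE, 7 pairs) log2 units with an adjusted p of 0.00116; the last 2 pairs gave 2.76.

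Its passenger, miR-246-5p, ranged from 7.19 (95% interval 3.11 to 14.2) to 353 scaled counts in the third cycle and from 633 to 1168 in the fourth, a difference of 3.51 ± 0.64 with no overlap; with the added term it was 1.54 (adjusted p = 0.093) and not called. Unlike its guide it peaked at 32 h and was lower at 35 h, with 805.

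The guide miR-85-3p (chromosome II, 8393553 to 8393658, plus strand) had 1413, 2209, 3360, 4839, 6373, 10129 and 17369 scaled counts from 22 to 28 h. It then had 31771, 49327, 75845, 108848, 130543, 135016 and 129082. The groups did not overlap, and the difference of 4.14 ± 0.23 (adjusted p = 1.6e-05) remained 3.31 in the last 2 pairs. Its passenger, miR-85-5p, was at 7.19 at 22 h and 93.5 at 28 h, reached 439 at 32 h and was back at 104 at 35 h. The passenger rose by 3.89 ± 0.74 over the cycles, but by only 1.28 in the last 2 pairs, and it was not called with the added term (1.37, adjusted p = 0.113).

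miR-359 (chromosome X, 3004291 to 3004400, plus strand) lay between 114 and 185 scaled counts in the third cycle and had 275, 322, 633, 1068, 1491, 1679 and 1560 in the fourth. The difference was 2.51 ± 0.32 (adjusted p = 0.0006), with no overlap, and it was larger in the last 2 pairs, at 3.16. miR-785-3p, whose hairpin starts at 3004668 on the same strand and which was named for this proximity after its values were seen, went from 2211 at 22 h to 5154 at 35 h, a difference of 0.68 ± 0.07.

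The hairpins of miR-240 and miR-786 lie 32 bases apart on chromosome X (7882622 to 7882840, plus strand), and loss of this cluster is known to lengthen the defecation cycle of the worm. All 4 strands were called higher. The passenger miR-240-3p ranged from 1003 to 3891 scaled counts (median 1943) in the third cycle and from 5372 to 7896 (median 6885) in the fourth, a rise of 1.86 ± 0.21 with no overlap and of 1.09 in the last 2 pairs. The guide miR-786-3p had 396 to 402 scaled counts from 22 to 25 h, stood at 1227 at 27 h and ranged from 1700 to 3102 in the fourth cycle, its mean being 3.35-fold higher (adjusted p = 0.00185). Its passenger miR-786-5p ranged from 30.5 to 135 and then from 258 to 321 (2.21 ± 0.28, and 1.14 in the last 2 pairs). The guide miR-240-5p overlapped between cycles, from 4203 to 16510 against 9492 to 25481, and its rise of 1.52 ± 0.43 came to -0.16 in the last 2 pairs and was lost without the pair at any of positions 1 to 5 (adjusted p up to 0.0671). With the added term miR-786-3p was at 0.71, and it was not called.

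The remaining list members, miR-357-3p and miR-358-3p, did not pass the test. miR-357-3p had 109 scaled counts at 22 h, 3350 at 28 h and 2763 to 3977 in the fourth cycle, a difference of 1.85 ± 0.74 (adjusted p = 0.0774). miR-358-3p went from 8.09 at 22 h to 1067 at 28 h and then lay between 869 and 1235 (2.48, adjusted p = 0.0805). The matched differences of these strands were 5.09 and 6.27 in the first pair, against a mean of 0.0003 and 0.02 in the last 2.

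Of all 272 strands, miR-1817 (chromosome I, 10869370 to 10869474, minus strand) had the largest rise. It had 3.60 (95% interval 0.98 to 9.21), 11.8, 10.5, 21.3, 24.0, 43.3 and 120 scaled counts in the third cycle and 351, 600, 1214, 1594, 2040, 1913 and 1694 in the fourth. The mean was 40.1-fold higher, the difference was 5.78 ± 0.41 (adjusted p = 3.9e-05), and the last 2 pairs gave 4.48.

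miR-5592 is annotated as a pair of hairpins on opposite strands of chromosome X (13759245 to 13759308 and 13759247 to 13759310), and counts do not show from which of them a strand came. Its guide miR-5592-3p had 29.7 scaled counts at 22 h, 157, 891, 2737, 5752 and 10967 in the next hours, and 15677 at 28 h. In the fourth cycle it was nearly level, from 21983 to 30393. The difference of 3.86 ± 1.20 passed with an adjusted p of 0.0331, and its passenger, at 3.75 ± 1.30, with 0.0479. Both calls were lost without the block and without any of the pairs at positions 2 to 5, with adjusted p up to 0.0848 for the guide and 0.115 for the passenger, and the last 2 pairs gave 1.21 and 0.82.

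Among the called strands outside the list, the largest gain in mean scaled counts was that of the abundant guide miR-77-3p (chromosome II, 12519268 to 12519367, plus strand). It went from 13230 at 22 h to 35541 at 28 h and from 38804 at 30 h to 105102 at 35 h. The difference of 1.58 ± 0.06 had the smallest adjusted p of all 272 strands (2.5e-06), and the 7 pairs were alike, with 1.53 in the last 2. Its passenger miR-77-5p rose by 1.91 ± 0.13, again with no overlap, and was 1.80 log2 units higher with the added term. The guide miR-59-3p had 2780 at 22 h, 32125 at 28 h and 34045 to 42741 in the fourth cycle (1.84 ± 0.49), but only 0.33 in the last 2 pairs, and its call was lost without the pair at position 2, 3 or 4 (adjusted p up to 0.0565).

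Among the less abundant strands, the guide miR-784-3p ranged from 22.7 to 50.7 and then from 92.7 to 194 scaled counts (2.02 ± 0.24, and 1.66 in the last 2 pairs). Its passenger miR-784-5p had 0 reads at 26 h, which allows up to 3.78 scaled counts, and 34.9 scaled counts at most; its rise of 1.29 ± 0.39 was lost in 5 of the 7 fits without a pair. The passenger miR-82-5p, of a hairpin in the miR-58 family, rose from between 168 and 425 to between 581 and 1096 (1.63 ± 0.20), with 0.82 in the last 2 pairs. The other higher strands were miR-4811-3p (3.94), miR-78 (1.30), miR-259-3p (1.30), miR-356b-5p (1.16) and miR-789-2-5p (1.08 log2 units), which are named to complete the count. miR-4811-3p had only 1 to 14 reads a library in the third cycle, and 4 and 12 at 29 h and 30 h. Its difference thus rests on a base near 0 and on the hours from 31 h on, when it had 57 to 244 reads. With the added term miR-259-3p (0.87) and miR-356b-5p (0.63, adjusted p = 0.135) were not called.

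Strands that the study set apart for a late decline, again chosen on these samples, were both lower, with a median difference of -2.61 log2 units. The guide miR-788-5p (chromosome X, 8485294 to 8485371, minus strand) had 34368, 36389, 41203, 41439, 31929, 39532 and 32371 scaled counts in the third cycle. In the fourth it had 33547, 19192, 10552, 4103, 3061, 2166 and 1597. The groups overlapped only through 29 h, which was at the level of the third cycle. The difference was -2.65 ± 0.63 (adjusted p = 0.0114), and the last 2 pairs averaged -4.26. An exact sign-flip permutation test of the 7 pairs gave 0.0156, the smallest value that 7 pairs can give. Because the strand was chosen on these samples and the hours are consecutive, these p-values are no independent evidence of a decline. The guide miR-247-3p ranged from 1331 to 2493 and then from 127 to 1137 scaled counts, without overlap (-2.57 ± 0.30, and -3.26 in the last 2 pairs).

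Close to miR-247 lies miR-797, 40 bases downstream on chromosome X. Its passenger miR-797-5p, on the list of the miR-2 family, ranged from 551 to 897 and then from 90.6 to 500 scaled counts (-1.94 ± 0.25, and -2.64 in the last 2 pairs), with no overlap. The guide miR-797-3p was lower by less than the threshold, at -0.91 ± 0.10.

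On chromosome II, the hairpins of miR-42, miR-43 and miR-44 lie within 11889811 to 11890118 on the plus strand. Of their 6 strands 4 were lower, against 13 of all 272 strands (4.78%). Their passengers led. miR-44-5p had 1433, 981, 703, 566, 1174, 1930 and 2025 scaled counts from 22 to 28 h, so that it dipped and recovered, and then 1109, 401, 185, 129, 93.7, 98.8 and 147. It fell by 2.49 ± 0.54 on the log2 scale (adjusted p = 0.00743), with 29 h within the range of the third cycle, and the last 2 pairs gave -3.95. miR-42-5p ranged from 183 to 657 and then from 42.1 to 368 (-1.93 ± 0.46), and miR-43-5p from 81.9 to 332 and then from 20.0 to 216 (-1.77 ± 0.51). Both were lower in the last 2 pairs, at -3.42 and -3.11. The call of miR-43-5p was lost without the pair at position 4, 5 or 6 (adjusted p up to 0.0678). The guide miR-43-3p went from between 727 and 1100 to between 252 and 708, with no overlap (-1.27 ± 0.13, and -1.49 with the added term).

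miR-44-3p and miR-45-3p, guides and members of a family that promotes sperm fate in the hermaphrodite germ line, are near-identical and reads can be split between them, so their separate values are uncertain. They changed by -0.52 ± 0.07 and -0.53 ± 0.07 and passed the adjusted p but not the limit of 1 log2 unit. The passenger of miR-45, whose hairpin lies on the other strand of the same region, fell by 1.24 ± 0.19, from between 1457 and 3448 scaled counts to between 616 and 1542, and was at -0.98 with the added term.

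Of the other 5 lower strands, miR-80-5p (-1.03 ± 0.15), miR-53-3p (-1.91 ± 0.14) and miR-254-3p (-1.03 ± 0.14) were among the 12 strands that shifted at 27 h. miR-80-5p had 27107 to 33611 scaled counts from 22 to 26 h and 8075 to 18131 in the fourth cycle, but 10187 and 12624 at 27 h and 28 h. miR-53-3p had 167 to 285 from 22 to 26 h, 55.3 and 64.6 at 27 h and 28 h, and 21.1 to 83.3 in the fourth cycle. The last 2 pairs gave -0.49 for miR-80-5p, -1.18 for miR-53-3p and -0.49 for miR-254-3p. The call of miR-80-5p was also lost without the pair at position 2, 4 or 5, where the difference was as small as -0.95, and that of miR-254-3p without position 2, 3, 4 or 5, where it was as small as -0.96. The others were miR-4813-5p (-1.19) and miR-5546-3p (-1.08), the latter at a mean of 9.87 and 4.84 scaled counts and not called without the pair at any of positions 2 to 6 (adjusted p up to 0.0821).

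**Figure D3:**
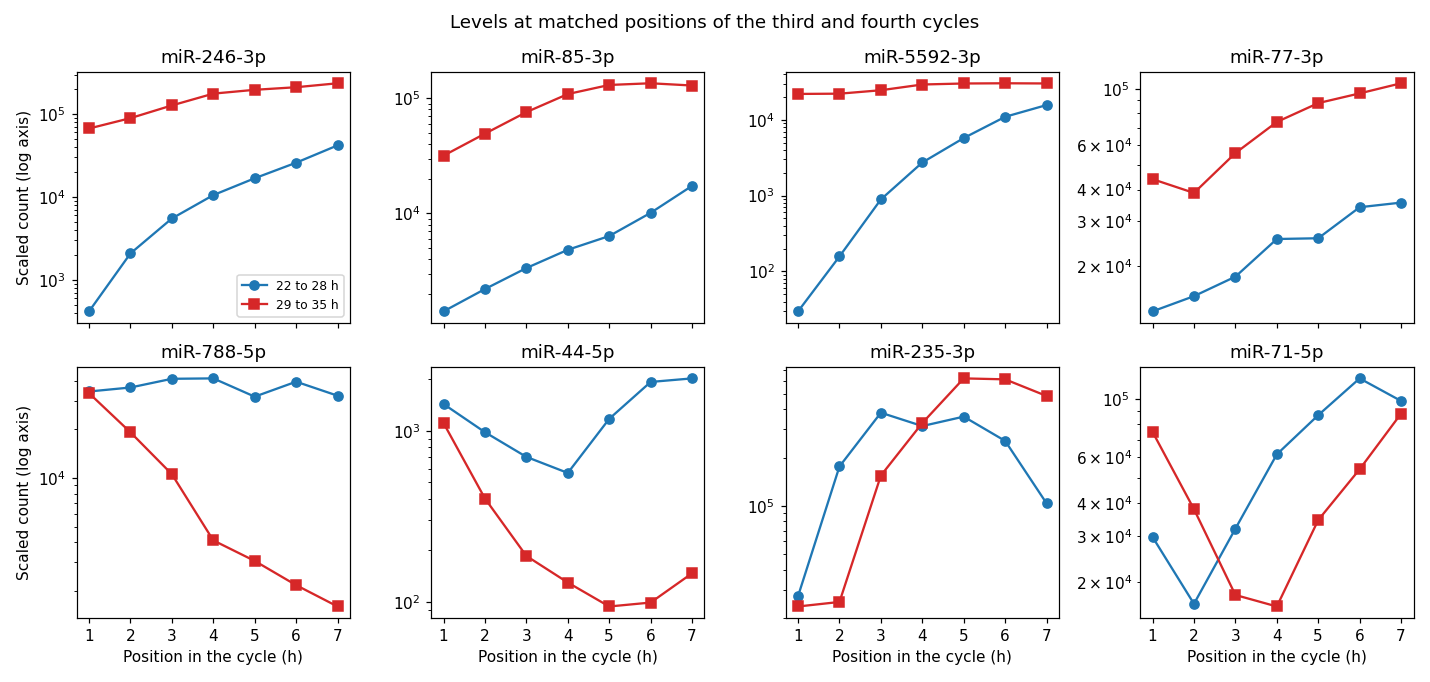
Scaled counts (log axis) at the 7 matched positions of the third (blue) and the fourth (red) cycle for 8 strands, 1 library a point. miR-246-3p, miR-85-3p, miR-5592-3p and miR-77-3p were higher at every position; miR-788-5p and miR-44-5p parted after the first position; miR-235-3p and miR-71-5p crossed.

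The heterochronic families differed less than these. In the let-7 family, which acts at the later larval transitions, 0 of 7 strands were called and the median was -0.17, although 4 passed the adjusted p alone. let-7-5p itself, the regulator of the transition to the adult, ranged from 54015 to 80197 and then from 87845 to 121812 scaled counts, with no overlap, and was higher by 0.73 ± 0.10 (adjusted p = 0.000899), and by 0.98 in the last 2 pairs. miR-793 and miR-795-5p differed by -0.62 and -0.53, and miR-48-5p, miR-84-5p, miR-241-5p and miR-794-5p lay between -0.19 and 0.14. Both strands of the lin-4 family list passed the adjusted p with small differences, 0.23 ± 0.06 for lin-4-5p, which acts at the earliest transitions, and 0.41 ± 0.08 for its relative miR-237-5p.

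In the other families none was called higher. Of all 272 strands 13 (4.78%) were called lower. The miR-44 family had a median of -0.66 with 1 of 4 called lower (miR-247-3p), and its member miR-61-3p was at -0.78 ± 0.08. That median counts miR-44-3p and miR-45-3p as 2 members, although their reads can be split. The miR-2 family had a median of -0.82 with 2 of 4 lower, miR-43-3p and miR-797-5p, whereas miR-2-3p and miR-250-3p were at -0.36 and -0.06. The miR-35 family, needed in embryos, had 8 guides tested, with a median of -0.19 and none called. None was called either among the 6 strands of the miR-51 family (median 0.06), the 5 tested of the miR-58 family (0.09), the 4 of the miR-64 cluster (0.23) and the 3 of the miR-72 family (-0.28). Means can hide changes within a cycle. The rhythm, tested below, differed in 3 of the 6 miR-51 family strands and in 5 of the 8 miR-35 guides, against 41 of 272 (15.1%). In the miR-51 family miR-56-3p had 21974 scaled counts at 26 h and 74224 at 27 h, whereas miR-53-5p had 7190 and 7284. Within the miR-64 cluster miR-66-5p, at 0.53 ± 0.14, and miR-229-5p, at 0.30 ± 0.07, belonged to the strands that shifted at 27 h, and the last 2 pairs gave -0.03 and 0.10.

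Strands known from particular tissues were used to look at the composition of the worms. miR-1-3p, which marks muscle, lay between 11647 and 13807 scaled counts over all 14 libraries (-0.03 ± 0.07, adjusted p = 0.749). miR-60-3p of the intestine differed by 0.13 ± 0.08 and miR-228-5p of glia and hypodermis by -0.29 ± 0.14. The mean hides a change in miR-228-5p, which was called for the change along the cycle and for the rhythm. It had 1077910 scaled counts at 22 h and 1019720 at 29 h, but 1225040 at 28 h and 641257 at 35 h. The neuronal list had a median of -0.42, with 0 of 4 called: lsy-6-3p, which sets the asymmetry of a taste neuron pair, was at -0.44 ± 0.07 without overlap, and miR-124-3p at -0.22 ± 0.11. The most abundant strands were miR-82-3p (0.48), miR-57-5p (-0.25), miR-228-5p (-0.29), miR-58a-3p (-0.23) and miR-72-5p (-0.28), none of them called. miR-58a-3p had 735983 to 791156 scaled counts from 22 to 26 h and 576774 to 654401 from 27 h on.

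The second comparison asked whether the strands of a hairpin changed together. The passenger-to-guide ratio was higher in the fourth cycle in 5 of 102 hairpins (4.9%) and lower in 5 (4.9%), by at least 1 log2 unit with an adjusted p under 0.05, while the median over all hairpins was 0.10. Without the pair at position 3, 4 or 6 there were 6 calls, and without position 5 there were 3. With the added term there were 19, but only 4 of the 10 (miR-788, miR-44, miR-53 and miR-797) were among them, and miR-235, miR-247, miR-40, miR-82, miR-80 and miR-42 were not (adjusted p from 0.0713 to 0.862).

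The ratio of miR-788 rose by 2.38 ± 0.51 log2 units (adjusted p = 0.0146), higher in 6 of 7 pairs. While its guide fell as above, the passenger miR-788-3p had 1885, 1517, 1062, 752, 676, 714 and 938 scaled counts and then 1311, 1486, 1354, 722, 694, 559 and 449 (-0.23 ± 0.16), so that the cycles overlapped. The passenger made up 2.85% of the counts of the hairpin in the third cycle and 8.14% in the fourth. The ratio of miR-247 rose by 1.76 ± 0.27, with its passenger miR-247-5p at 19.1 to 42.6 and then 6.11 to 26.6 scaled counts.

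The ratio of miR-235 rose by 1.75 ± 0.52 (adjusted p = 0.039), in 5 of 7 pairs. miR-235-3p, a relative of mammalian miR-92, was abundant and nearly level on average (0.05 ± 0.60), whereas its passenger miR-235-5p had at most 204 scaled counts in the third cycle and 577 in the fourth. Its peaks lay 9 h apart, so this ratio may compare different phases, and with the added term it was 1.04 (adjusted p = 0.51). The change for miR-40 (1.52 ± 0.43) rested on a passenger with 0 to 14.0 scaled counts. That of miR-82 (1.15 ± 0.28) came with a guide at 0.48 and was 0.06 with the added term.

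Ratios fell where a passenger fell further than its guide. The ratio of miR-44 changed by -1.96 ± 0.42 (adjusted p = 0.0146), its passenger being 0.202% and then 0.0706% of the counts given to the hairpin. As stated above, reads of its guide can be split with miR-45-3p, so this ratio and these shares are uncertain. That of miR-53 changed by -1.92 ± 0.20 (adjusted p = 0.00039), lower in 7 of 7 pairs, with the guide miR-53-5p at -0.004 ± 0.10 and the passenger among the strands that shifted at 27 h. The ratios of miR-80 (-1.13), miR-42 (-1.06) and miR-797 (-1.03) were also lower. In miR-246, miR-85 and miR-5592, where both strands rose by over 3 log2 units, the ratio changed by -0.73 ± 0.16, -0.31 ± 0.45 and -0.05 ± 0.18, none of them called. That of miR-246 was lower in 7 of 7 pairs with an adjusted p of 0.0146 and missed only the limit of 1 log2 unit. With the added term miR-246 (-1.21, adjusted p = 0.00208) and miR-85 (-1.94, adjusted p = 0.0135) met both limits.

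**Figure D4:**
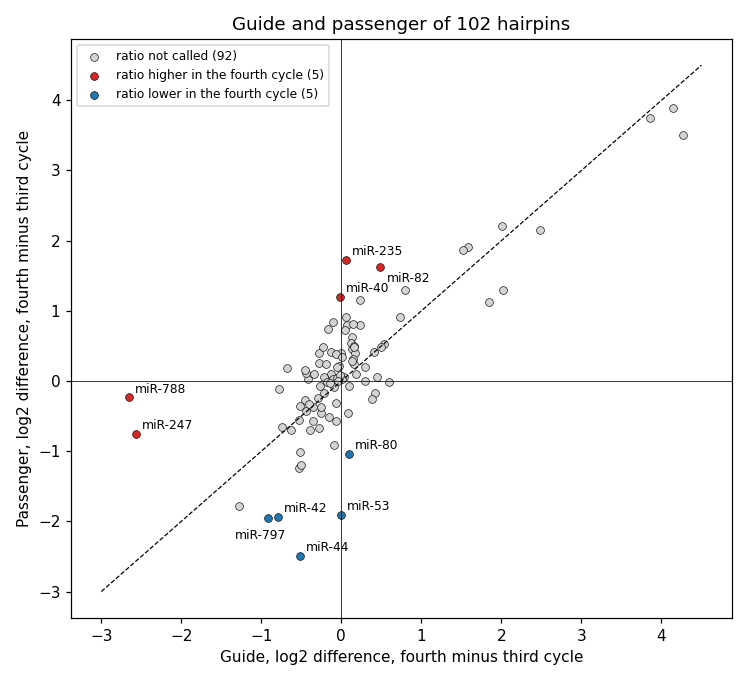
Difference of the guide (x axis) and of the passenger (y axis) between the cycles for 102 hairpins, both in log2 units, 1 point a hairpin; the dashed line marks equal differences. The 10 hairpins with a called ratio are coloured and named: miR-788 lies at -2.65 and -0.23, miR-53 at -0.004 and -1.91.

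The third comparison asked whether the matched difference changed from the first to the last position of the cycle. It fell by at least 1 log2 unit over the 6 h in 28 of 272 strands (10.3%) and rose in 11 (4.04%), with an adjusted p under 0.05. Of the 28, 16 had a positive difference over the cycles and 12 a negative one. These signs alone do not show whether a gap narrowed or widened, because a matched difference can change sign along the cycle. Without the pair at position 2, 6 or 7 there were 25, 24 and 23 calls in place of 39, and with the added term 19, of which 18 were among the 39.

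The steepest were miR-5592-5p (-8.79 ± 0.92 log2 units over 6 h) and miR-5592-3p (-8.28 ± 0.87), which were nearly level in the fourth cycle and climbed in the third. The clustered miR-358-5p (-7.42 ± 0.84), miR-358-3p (-7.15 ± 0.61) and miR-357-3p (-5.42 ± 0.49) were also among the steepest. At 22 h miR-358-5p had 1.80 scaled counts, from 2 reads, and at 29 h 491; at 28 h and 35 h it had 399 and 298. miR-59-3p had the smallest adjusted p (9.8e-06), with -3.76 ± 0.17.

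Among falling differences with a negative mean, miR-788-5p changed by -4.47 ± 0.43 and miR-44-5p by -3.85 ± 0.47. The guide miR-42-3p, not called for its mean difference (-0.79 ± 0.65), had 1479 scaled counts at 22 h and 1706 at 29 h, but 1813 at 28 h and 119 at 35 h (-4.40 ± 0.91). Of the 8 guides of its family, the miR-35 family, 2 were called here, against 28 falling (10.3%) and 11 rising (4.04%) of all 272 strands. Its relatives miR-35-3p and miR-40-3p were not called.

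The 11 rising differences were led by both strands of miR-235, with 5.16 ± 1.43 for miR-235-5p and 3.82 ± 1.07 for miR-235-3p, whose peaks lay 9 h apart, so that these trends may compare different phases. miR-5549-3p (2.80 ± 0.71), at 3.98 to 28.4 scaled counts, miR-359 (2.27 ± 0.38) and miR-37-5p (2.15 ± 0.46) followed. miR-37-5p had 318 scaled counts at 22 h and 291 at 29 h, 53.0 at its lowest at 26 h and 539 at 35 h.

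The last comparison asked whether a 7 h cosine and sine had the same size and timing in both cycles. They differed in 41 of 272 strands (15.1%), with a larger fitted amplitude in the fourth cycle in 22 and in the third in 19. In 33 of the 41 the fitted peak fell later in the fourth cycle, and the median shift was 1.65 h. This count depended on single pairs: it was 62 without the pair at position 1, 9 without position 2, 3 or 4, 25 without position 5 and 2 without position 6. With the added term it was 4, and 67 strands had an unadjusted p under 0.05 in the edgeR fit.

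miR-71-5p, which is known for its role in lifespan, had 29702, 16509, 31963, 61435, 86713, 119804 and 98249 scaled counts in the third cycle and 74835, 37943, 17844, 16127, 34488, 53915 and 87901 in the fourth. Its trough thus fell at 23 h and at 32 h, 9 h apart, and its rhythm differed with an adjusted p of 0.00541. miR-235-5p, at the same adjusted p, peaked at 23 h with 204 and at 32 h with 577. Its guide miR-235-3p was lowest at 22 h and 29 h, with 27324 and 23549, but highest at 24 h and 33 h, with 380540 and 622769 (adjusted p = 0.147 for the rhythm).

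The guides miR-40-3p, miR-35-3p and miR-37-3p came next, each at 0.011. miR-35-3p had 19771, 17803, 11972, 9551, 8982, 11781 and 15890 scaled counts, with the low at 26 h, and then 19241, 22077, 17358, 13850, 5291, 4702 and 8892, with the low at 34 h. Its fitted amplitude was 0.58 log2 units in the third cycle and 1.15 in the fourth. After the window miR-35-3p kept rising, to 18456 scaled counts at 36 h and 229262 at 42 h, and miR-37-3p reached 86899 at 42 h. The fit had no trend term, and whether the start of this rise adds to the fourth-cycle amplitude was not tested. miR-40-3p and miR-37-3p had the same order of highs and lows, from 22 h to 26 h or 25 h and from 30 h to 34 h. The passengers lin-4-3p and let-7-3p were highest at 22 h and 29 h, 7 h apart. Within the windows they were lowest at 26 h and at 35 h, the last hour compared. lin-4-3p stayed low after it, with 110 scaled counts at 36 h and 57.0 at 38 h, the latter in a library of only 1669246 counts. The spacing of these lows thus depends on where the window ends. let-7-3p had 9112 scaled counts at 22 h and 12108 at 29 h, then 233 at 26 h and 229 at 35 h as its lowest values, with amplitudes of 2.74 and 2.68 log2 units.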

How the data were processed

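Per the labels, the worms were N2 and the authors aligned small RNA reads to ce10 with Bowtie; by the study's methods this ran through QuasR, and same-strand reads starting within 3 bp of a mature 5′ end were counted. The deposited raw counts per mature strand were used for all tests. The deposited log2 table, made by the authors from counts scaled to the mean library total plus 8, was checked against them and not tested. Totals were 7446763 to 14672735 counts, and the filter kept 99.997% of them.

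The members and lists were chosen with earlier results of these data known. Differences came from edgeR 4.0.16 quasi-likelihood fits (R 4.3.3) with total-count scaling, cycle and position as terms, 6 residual degrees of freedom and Benjamini-Hochberg adjustment over all 272 strands (102 hairpins for ratios); calls needed an adjusted p under 0.05 and 1 log2 unit. The change along the cycle added position by cycle, and the rhythm used cosine and sine terms by cycle with a 7 h period. Pairs come from hours 7 h apart, not from shared animals. Matched differences of single pairs are log2 of scaled counts plus 8, and understate changes of low strands. Python 3.11.15 drew the figures. Alternatives used limma 3.58.1 and DESeq2 1.42.0 among others.

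Named strands were the 10 largest rises and falls among calls with a mean of at least 100 scaled counts, the 5 largest gains and losses of counts, 6 ratios, 5 differences changing each way along the cycle, 5 rhythms, the 5 most abundant strands, their partners and list members. On counts simulated for 272 strands, all 30 strands changed between cycles by 1.5 log2 units passed an adjusted p under 0.05, with 4 false passes in that run. For the change along the cycle, 10 of 30 passed at 1.5 log2 units and 28 of 30 at 3, so smaller changes can be missed. The limit of 1 log2 unit was not applied there. Simulated libraries were independent, with the same scatter for every strand and an even 7 h rhythm. They held no drift over the hours and no shift at 27 h, so they do not show how the tests perform with these. Locations are from WBcel235, not ce10, and none was converted.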

Additional observations from a re-analysis of the deposited data

Results flagged for a closer look

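Among 108 sets of 7 values examined (the 7 matched differences of each named strand and the library totals of each cycle), 2 had a value far from the rest, where chance gives about 1 in 20. The matched difference of miR-2-3p at 22 and 29 h was -0.12, the smallest decline of its 7 pairs. That of miR-237-5p at 28 and 35 h was -0.047, the lowest of its 7 pairs, the others all being higher in the fourth cycle. The rhythm differed between the cycles by the test of the difference itself for miR-71-5p and miR-235-5p (edgeR adjusted p = 0.00541 each) and for miR-40-3p, miR-35-3p and miR-37-3p (0.011 each).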

How the results depend on the processing

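Strands higher in the fourth cycle numbered 23, and those lower 13. With the adjusted p alone there were 56 and 64, and with a limit of 2 log2 units 12 and 3. Without the replicate block there were 21 and 14 (21 and 13 of them shared with the blocked fit), and without each pair in turn 18 to 27 and 9 to 14. TMM factors, DESeq2 size factors, the DESeq2 test, limma, cosine and sine terms and other filters gave 17 to 29 higher and 11 to 14 lower. With hours from 27 h on as a term, chosen after the data were seen, there were 18 and 25; this fit estimates the difference from the last 2 pairs alone. Called ratios numbered 10, with 24 by adjusted p alone, 7 without the replicate block, 3 to 12 without each pair and 19 with the added term (4 of them shared). Differences that changed along the cycle numbered 39, with 38 without the replicate block, 23 to 49 without each pair and 19 with the added term (18 shared). Rhythm differences numbered 41, with 30 under the replicate block, 24 at a 6.5 h period, 48 at 7.5 h, 2 to 62 without each pair and 4 with the added term. Deviations from the cycle means correlated within pairs by -0.06 to 0.45, over 0.1 in 6 of 7 pairs, and 1 of 7 hours of the third cycle correlated best with its own match, so the pairing rests on the hours alone. Of the called strands, miR-240-5p alone changed sign in these fits (-0.16 with the added term). With 1 library an hour, the 27 h shift and development between 26 h and 27 h cannot be told apart.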
